A study of Mus musculus with 5 samples.

Results

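The comparison described is adipocytes given resveratrol against adipocytes given the solvent DMSO alone, in the array that the labels name as the control for resveratrol (DMSO1 below). Its members are 2 of the series' 5 samples, chosen by their titles, with 1 array on each side. C3H10T1/2 is a mouse mesenchymal cell line, and per the labels the cells were fully differentiated into adipocytes, given fresh medium on the day before and treated for 6 h. The groups are DMSO, butein, sulfuretin, DMSO1 and resveratrol, with no genetic change in any of them. Doses, the passage of the line and the number of cultures behind each array are not stated in these sources. Total RNA (500 ng) was made into biotinylated cRNA for Affymetrix expression arrays.

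Each value is the intensity of a probe set, a group of short oligonucleotides for the same transcript, on the linear scale of the deposited table. Differences are log2 of the resveratrol intensity minus log2 of the DMSO1 intensity, so that 1 stands for 2-fold higher and -1 for 2-fold lower. Of 45037 probe sets, those that name a single gene cover 18193 genes, and each gene was read from its brightest probe set. A gene was counted if it reached 8.39 on at least 1 of the 5 arrays, the median of the probe sets' mean levels (the floor), which 12439 genes did. With 1 array a side no test was made and the differences have no error estimate. A difference between the cultures, or between the arrays, cannot be told apart from one that came with resveratrol, and in bulk RNA neither can a loss of cells of a type and less RNA in each cell.

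Resveratrol is a plant stilbene that has been studied for its effects on sirtuins, AMP-activated kinase and cell stress. Adipocytes make fatty acids and sterols under the SREBP transcription factors, which are released from the endoplasmic reticulum when sterols are scarce, and they sense circulating metabolites through G protein-coupled receptors, several of which restrain lipolysis. Immediate early genes are switched on within minutes to hours of a signal, without new protein synthesis, and code for short-lived transcription factors and growth regulators such as Jun, Fos and Egr1.

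The cells carried the adipocyte label in their transcripts. All 6 counted adipocyte markers were present on both arrays and lower with resveratrol, with a median log2 difference of -0.11. Their summed intensity was 22301 in DMSO1 and 20835 with resveratrol. Fabp4, the fatty acid binding protein of fat cells, read 7550 in DMSO1 and 7338 with resveratrol, with -0.43 to -0.04 over 4 probe sets. Adipoq, the adiponectin gene, read 6751 and 6134. The leptin gene Lep and the brown fat uncoupling protein gene Ucp1 were under the floor on all 5 arrays. Markers of preadipocytes and fibroblasts were present too. Of 7 analysed, 4 were counted, with a summed intensity of 1258 in DMSO1 and 1159 with resveratrol. Among them Col1a1 read 708 and 640, Pdgfra 387 and 353, and Thy1 144 and 147. Of 9 macrophage and blood cell markers analysed, Ptprc, Adgre1, Itgam and Hba-a1 were under the floor, and the summed intensity of the other 5 was 112 and 113. Of 9 muscle markers, Myod1, Myog, Myf5, Myh3 and Tnnt3 were under the floor and the sum of the other 4 was 258 and 244. Of 6 endothelial markers only Kdr reached the floor, at 11.5 in DMSO1 and 15.0 with resveratrol.

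The arrays were close to each other. At least 2-fold apart were 10 genes that were higher with resveratrol (0.0804% of the counted genes) and 8 that were lower (0.0643%). At least 1.5-fold apart were 42 higher genes (0.338%) and 45 lower ones (0.362%), and at least 1.2-fold apart were 321 higher (2.58%) and 404 lower (3.25%). The median over all counted genes was 0, with 32.9% higher by any amount, 34.0% lower and 33.1% equal. These shares are the background for the counts below. DMSO1 and DMSO, both solvent arrays, differed by at least 2-fold at 295 genes upward (2.37%) and 427 downward (3.43%) when all 5 arrays were brought to one distribution by quantile normalization (joint normalization below).

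**Figure D1:**
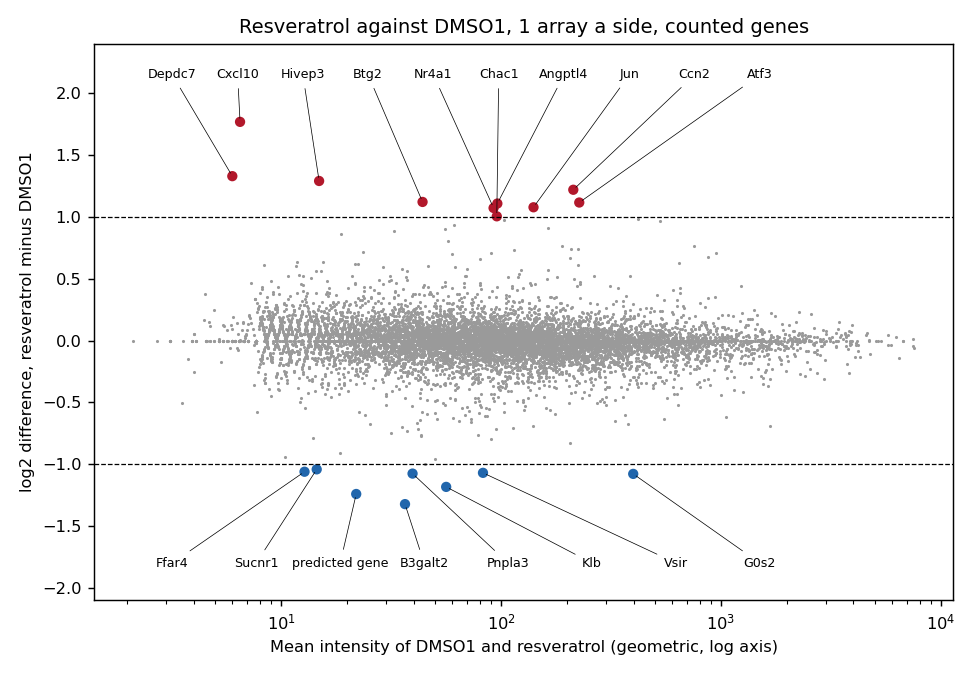
Log2 difference of resveratrol minus DMSO1 (vertical axis) against the geometric mean intensity of those arrays (horizontal, log axis) for the 12439 counted genes, 1 point each. The dashed lines mark 2-fold, past which lie 10 red genes above and 8 blue genes below; the rest lie between, along 0.

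Of the 10 higher genes 5 belong to the immediate early or the ATF4 stress genes. Atf3 (NCBI gene 11910), a stress-induced member of the ATF family, read 154 in DMSO1 and 334 with resveratrol, a log2 difference of 1.12. Jun (gene 16476), a subunit of the AP-1 transcription factor, read 96.6 and 204, a difference of 1.08. Nr4a1 (gene 15370), an orphan nuclear receptor, read 63.7 and 134, a difference of 1.07. These 3 are transcription factor genes, and each was well above the floor on both arrays. Btg2 (gene 12227), an antiproliferative gene and p53 target, read 29.8 and 64.8, a difference of 1.12. Chac1 (gene 69065), an enzyme that degrades glutathione and a target of ATF4, read 67.4 and 135, a difference of 1.01.

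Another 3 of the 10 code for secreted factors. Ccn2 (gene 14219), the matricellular protein also known as connective tissue growth factor, read 139 in DMSO1 and 325 with resveratrol, a difference of 1.22. Angptl4 (gene 57875), a secreted inhibitor of lipoprotein lipase, read 65.4 and 141, a difference of 1.11. Cxcl10 (gene 15945), a chemokine gene, read 3.52 and 12, a difference of 1.77 that starts from under the floor. Depdc7 (gene 211896) also started from under the floor, at 3.78 and 9.51, a difference of 1.33. Hivep3 (gene 16656), a zinc finger gene, read 9.51 and 23.3, a difference of 1.29, but its 3 counted probe sets ran from 0.00 to 1.29.

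The lower genes held receptors and lipid enzymes. Klb (gene 83379), the co-receptor beta-Klotho through which FGF21 acts, read 84.8 in DMSO1 and 37.3 with resveratrol, a difference of -1.18. G0s2 (gene 14373), an inhibitor of adipose triglyceride lipase, read 579 and 274, a difference of -1.08. Pnpla3 (gene 116939), a lipid droplet enzyme under SREBP control, read 57.4 and 27.2, also -1.08. Receptors for metabolites were a further pair. Ffar4 (gene 107221), a receptor for long-chain fatty acids, read 18.4 and 8.84, a difference of -1.06, which ends just above the floor. Sucnr1 (gene 84112), the succinate receptor, read 20.8 and 10.1, a difference of -1.04.

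B3galt2 (gene 26878), a galactosyltransferase, had the lowest difference, from 57.8 to 23.1 or -1.32, and its 3 probe sets gave -1.77 to -1.32. Vsir (gene 74048), an immune checkpoint protein, read 119.8 and 57.1, a difference of -1.07, while its other probe set gave -0.25. The eighth of the lower genes has only a predicted name. Just inside 2-fold were Chac1 at 1.01 and Sucnr1 at -1.04. Just outside it were Ifrd1 at 0.99, a regulator of differentiation that read 298 and 590.1, Hmox1 at 0.97 and, downward, Ffar2 at -0.96.

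**Figure D2:**
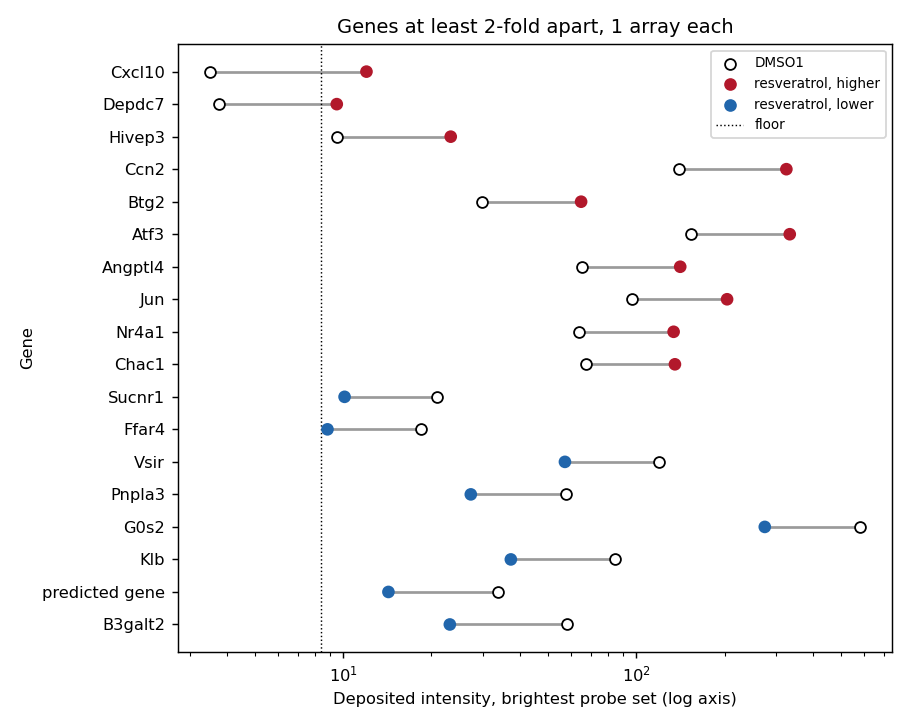
Deposited intensity (log axis) of the brightest probe set of the genes at least 2-fold apart, in DMSO1 (open circles) and with resveratrol (filled, red where higher and blue where lower), 1 array each. Cxcl10 and Depdc7 start left of the dotted floor at 8.39, and the remaining genes lie right of it on both arrays.

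Where a gene had further probe sets, these measured the same RNA again with other oligonucleotides, so they bear on the probe set and not on the culture. For the 36 genes with further probe sets whose brightest one differed by 1.5-fold to 2-fold, 54 of the 66 other probe sets differed in the same direction (81.8%), 11 were equal and 1 was opposite. For the 311 such genes between 1.2-fold and 1.5-fold, 385 of 503 other probe sets had the same direction (76.5%), 97 were equal and 21 opposite. At least 1.2-fold in the same direction were 37 of the 66 (56.1%) and 156 of the 503 (31.0%). Of 5726 genes with at least 2 counted probe sets, 41 had all of them at least 1.2-fold higher (0.716%) and 49 had all of them at least 1.2-fold lower (0.856%). These are the smaller differences on which the probe sets concur.

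Among them on the higher side, after Btg2, whose 2 probe sets gave 1.06 and 1.12, came Ier5, an immediate early gene, with 0.92 and 0.97. Ccn1, a matricellular relative of Ccn2, read 119 in DMSO1 and 224 with resveratrol, and its 4 probe sets gave 0.80 to 1.02. Txnip, the thioredoxin-interacting protein that limits glucose uptake, read 577 and 983, with 0.77 and 0.82. Each of these genes was thus higher by about the same amount on every probe set counted. The thiamine transporter gene Slc19a2 read 70.0 and 114, with 0.62 to 0.79 over 3 probe sets. The AP-1 gene Jun, whose levels are given above, had 0.71 and 1.08. Srf, the serum response factor that drives many immediate early genes, read 50.1 and 75.8, with 0.52 and 0.60. The growth factor gene Hbegf read 13.8 and 25.1, with 0.46 and 0.86. Cdkn1a, the cell cycle inhibitor p21, read 195 and 268, with 0.44 and 0.46. The ribosome assembly factor Nop56, the pseudokinase Trib3 and the TWEAK receptor gene Tnfrsf12a completed the 12 named genes, with smallest differences of 0.46, 0.42 and 0.41.

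On the lower side, after B3galt2, Ffar2, the receptor for short-chain fatty acids, read 69.7 in DMSO1 and 35.8 with resveratrol, and its 2 probe sets gave -0.96 and -0.92. Fam241a read 177 and 109.8, with -1.09 and -0.69. Itga6, an integrin chain that binds laminin, read 412 and 262, with -0.65 and -0.61. Enzymes of lipid synthesis were also in this group. Elovl6, which lengthens fatty acids, read 84.8 and 55.8, with -0.72 and -0.60. Hmgcs1, which makes HMG-CoA for the sterol pathway, read 2109 and 1309.8, and its 5 probe sets gave -0.69 to -0.56. Slc2a4, the insulin-responsive glucose transporter GLUT4, read 149 and 107, with -0.48 on both probe sets. Map7d2, Kctd12b, the interferon-inducible GTPase gene Iigp1, the retinol dehydrogenase gene Rdh12 and Fam126b had -0.57, -0.53, -0.52, -0.52 and -0.46 on the probe set nearest to 0. Stard4, a sterol carrier, is described with the sterol genes.

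Immediate early genes stood higher as a list. Of 33 counted, 32 were higher and 1, Nr4a3, was equal, against 32.9% higher among all counted genes, and the median was 0.26 against 0. At least 1.2-fold higher were 16 of the 33, at least 1.5-fold higher 7, and 4 were past 2-fold, with none lower. The AP-1 subunits were among the highest. Junb read 46.8 in DMSO1 and 76.2 with resveratrol, a difference of 0.70. Jund read 689.6 and 1103, a difference of 0.68. Fos read 30.8 and 45.6, a difference of 0.56. The related genes Fosl1 and Fosl2 gave 0.26 and 0.23, and Fosb was under the floor. Among zinc finger and nuclear receptor genes, Egr1 read 292 and 392, a difference of 0.43, and Klf10 read 47.1 and 65.4, a difference of 0.47. Nr4a2, a close relative of Nr4a1, is counted among the 32 but read 5.21 and 5.27, under the floor on both arrays, and in DMSO1 it was lower than in DMSO, at -2.60 after joint normalization. The growth arrest genes Gadd45a and Gadd45b gave 0.51 and 0.57, and Ier2, Ier3 and Maff gave 0.52, 0.43 and 0.41.

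**Figure D3:**
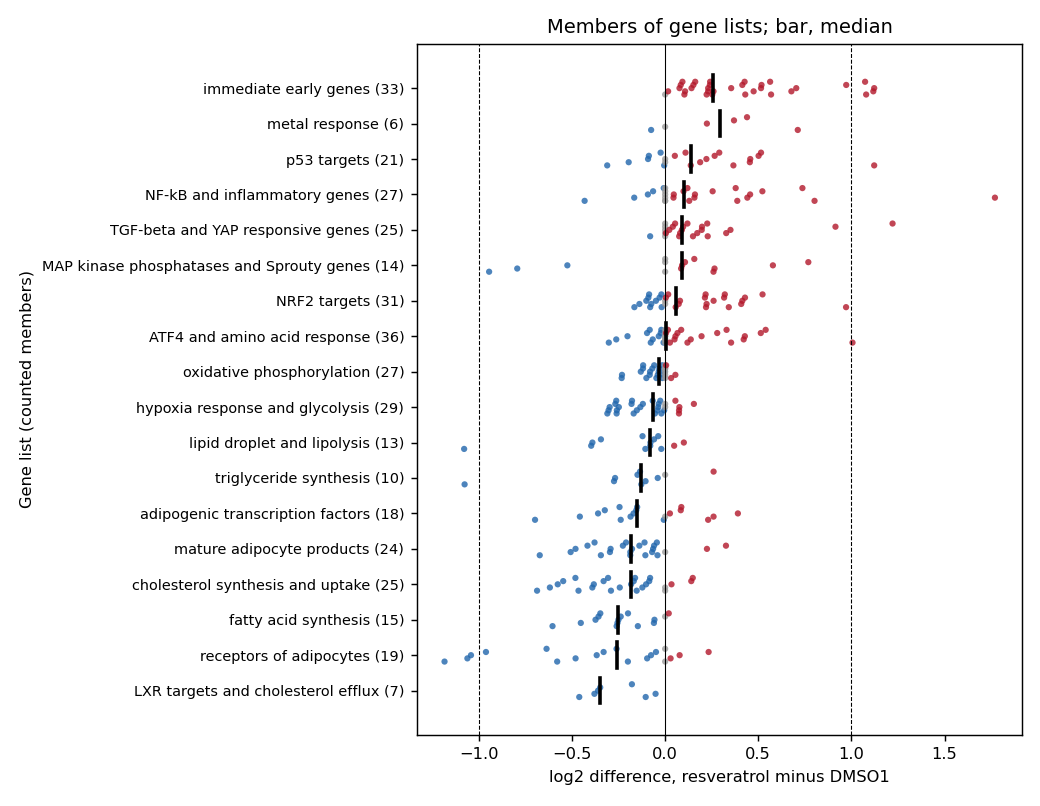
Log2 difference of resveratrol minus DMSO1 for the counted members of 18 gene lists, 1 point per gene (red higher, blue lower, grey equal), with the list's median as a black bar and the number of members in parentheses. Immediate early genes lie at or right of 0, and LXR targets, all 7 of them, lie left of it.

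Feedback inhibitors of MAP kinase signalling went both ways. Of 14 counted, 8 were higher, 3 lower and 3 equal. Dusp1, a nuclear phosphatase of p38, JNK and ERK, read 145 in DMSO1 and 248 with resveratrol, a difference of 0.77. Dusp5, a nuclear ERK phosphatase, read 57.4 and 85.8, a difference of 0.58. Against these, Spry4, a Sprouty inhibitor of receptor tyrosine kinase signalling, read 14.4 and 7.5, a difference of -0.94 that ends under the floor. Dusp4, another nuclear phosphatase, read 118 and 68.0, a difference of -0.79. Dusp6, the cytoplasmic ERK phosphatase, read 66.3 and 46.1, a difference of -0.52. Each of these genes had 1 counted probe set.

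The promoters of Btg2, Dusp1 and Pnpla3 are shown because each holds the full cAMP response element TGACGTCA while Btg2 and Dusp1 were higher and Pnpla3 lower. The sequences are RefSeq's, 5′ to 3′ on the gene's strand in GRCm38.p6, with up to 40 bases on either side of the element, which is in capitals. Btg2 lies at chr1:134079274-134079361 on the minus strand, Dusp1 at chr17:26508568-26508655 on the minus strand and Pnpla3 at chr15:84167730-84167815 on the plus strand.
Btg2: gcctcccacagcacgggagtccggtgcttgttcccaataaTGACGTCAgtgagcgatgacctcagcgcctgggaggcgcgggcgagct
Dusp1: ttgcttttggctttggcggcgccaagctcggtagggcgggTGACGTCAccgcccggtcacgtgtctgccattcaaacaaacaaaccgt
Pnpla3: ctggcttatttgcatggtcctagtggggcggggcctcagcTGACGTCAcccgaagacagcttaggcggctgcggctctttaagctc
The element begins 166 bases before the annotated start in Btg2, 143 in Dusp1 and 46 in Pnpla3. On both strands of the 250 bases before the start, 508 of 32851 RefSeq promoters hold it (1.55%). Among 42 promoters of 27 counted immediate early genes, those of Btg2 and Maff hold it. The AP-1 letters TGANTCA were in 2 of the 42, against 6.75% of all promoters. A match describes the letters and not a bound site.

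TGF-beta and YAP responsive genes were mostly higher. YAP is a co-activator that works through TEAD factors in cells under mechanical load or growth signals. Of 25 counted, 19 were higher, 1 lower and 5 equal, with a median of 0.09, and 4 were at least 1.2-fold higher. Those 4 were Ccn2 and Ccn1, whose values stand above, Ajuba, a LIM domain scaffold that read 57.4 in DMSO1 and 72.1 with resveratrol, and the repressor gene Tgif1 at 77.8 and 99.1. The differences of Ajuba and Tgif1 were 0.33 and 0.35. The inhibitor gene Smad7 and the TGF-beta genes Tgfb1 and Tgfb2 were equal on their brightest probe sets, with -0.09 on the lowest of 4 for Tgfb2. Tagln, a smooth muscle actin-binding protein, read 553 and 648, a difference of 0.23. Thbs1, a matricellular gene outside that list, read 164 and 260.1, with 0.40 and 0.67 on its 2 probe sets. Against the DMSO array after joint normalization the list's median was -0.12, where that of all genes was -0.09. Ccn2 differed there by 0.03 and Ccn1 by -0.32.

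The Ccn1 promoter is shown for its TEAD element. The letters GGAATG, here as the reverse complement CATTCC in capitals, begin 103 bases before the start, and the stretch lies at chr3:145650043-145650128 on the minus strand of GRCm38.p6.
Ccn1: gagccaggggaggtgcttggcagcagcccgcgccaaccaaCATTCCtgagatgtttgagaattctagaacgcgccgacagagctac
These letters are in 12.6% of all promoters and in 6 of 22 promoters of the list (27.3%), those of Acta2, Ajuba, Amotl2, Axl, Ccn1 and Id3.

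Stress pathways differed in their lists by small amounts. NRF2 turns on antioxidant genes when its inhibitor KEAP1 is modified. Of 31 counted NRF2 genes 18 were higher and 11 lower, with a median of 0.06, and 8 were at least 1.2-fold higher with none lower. Hmox1, heme oxygenase 1, read 378 in DMSO1 and 741 with resveratrol, a difference of 0.97. Srxn1, sulfiredoxin, read 220 and 316, a difference of 0.52, with 0.30 to 0.53 over 4 probe sets. Txnrd1, thioredoxin reductase, gave 0.30 to 0.37 over 3 probe sets, and Gclc, of glutathione synthesis, 0.32 and 0.47. The quinone reductase gene Nqo1 differed by -0.10. The differences were thus in part of the list, with Gsr, Nqo1 and the pentose phosphate gene Taldo1 slightly to the lower side.

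Genes of ATF4, the factor of the amino acid and integrated stress response, had a median of 0.00 over 36 counted members, with 8 at least 1.2-fold higher and 1 lower. Those 8 were 4 regulators and 4 targets, with the target Chac1 highest, as given above. Of the regulators, Ppp1r15a, which restores translation, read 100.1 and 145, a difference of 0.54. Ddit3, the factor CHOP, read 564 and 758, a difference of 0.43. Atf4 itself read 832 and 1064, a difference of 0.35, but its 3 counted probe sets ran from 0.00 to 0.35. The amino acid transporter genes Slc7a5 and Slc3a2 gave 0.51 and 0.33, while of the synthetic enzyme genes Asns was equal and Phgdh and Psat1 gave -0.08 each. ER chaperone and unfolded protein response genes had a median of 0.06, with 18 of 25 higher and 4 lower. Of the 25, 1 was at least 1.2-fold higher, the factor gene Creb3l2 at 0.31, with 0.00 on its other probe set. Among heat shock genes 1 of 21 was at least 1.2-fold higher.

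Among 21 counted p53 genes 13 were higher and 6 lower, with a median of 0.14 and 8 at least 1.2-fold higher. Besides Btg2, Cdkn1a and Gadd45a, the kinase gene Plk2 read 136 and 193, a difference of 0.50, and the ubiquitin ligase gene Mdm2 read 190.0 and 228, a difference of 0.27. Btg2 and Gadd45a are in the immediate early list too, as is Maff of the NRF2 list, so the lists are not separate. Against the DMSO array after joint normalization the p53 median was -0.08, on a scale where the median of all genes was -0.09. In the metal response list 4 of 6 were higher with a median of 0.30. Its metallothionein genes Mt1 and Mt2, which bind zinc and copper, read 1061 and 1439 (0.44) and 739 and 1209.8 (0.71), and the zinc exporter gene Slc30a1 read 92.8 and 119.9 (0.37).

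Of 27 counted NF-kB and inflammatory genes 16 were higher and 5 lower, with a median of 0.10. The highest were chemokine genes, but not all chemokine genes of the list were higher. Cx3cl1 gave 0.25 and Cxcl12 0.04, Ccl5 and Ccl20 were equal, and Cxcl5 gave -0.17. Ccl2 read 89.1 in DMSO1 and 148 with resveratrol, a difference of 0.74. Cxcl1 read 43.5 and 75.8, a difference of 0.80, with 0.10 to 1.15 over 3 probe sets. Ccl7 read 26.1 and 37.4, a difference of 0.52. Nfkbia, the inhibitor that NF-kB induces, read 570.1 and 746, with 0.22 to 0.50 over 5 probe sets. The cytokine genes Il6 and Cxcl2 and the adhesion molecule gene Icam1 were under the floor, Nos2 was equal, and the cytokine gene Il33 read 34.8 and 25.8, a difference of -0.43. Interferon-stimulated genes had a median of 0, and 11 of the 22 counted were equal. Against the DMSO array after joint normalization the NF-kB median was -0.11, where that of all genes was -0.09. Ccl2 differed there by -0.16, Cxcl1 by 0.04, Ccl7 by -1.06 and Cxcl10 by 0.69.

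Sterol synthesis enzymes were lower almost throughout. Of 18 counted, 17 were lower and 1, Ggps1, was equal, against 34.0% lower among all genes, and 10 were at least 1.2-fold lower, against 3.25%. Their median was -0.30 and their summed intensity 10176 in DMSO1 and 7821 with resveratrol. Early in the pathway, Hmgcs1 was lowest, as given above. Mvd, the decarboxylase of mevalonate diphosphate, read 103 and 70.3, a difference of -0.55, with -0.33 on its other probe set. Idi1, the isomerase of isopentenyl diphosphate, read 747 and 573, a difference of -0.38, with -0.65 on its other probe set. Further down, Fdft1, squalene synthase, read 666 and 482, a difference of -0.46, but its 4 probe sets ran from -0.46 to 0.11.

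Enzymes of the later steps were lower as well. Sqle, squalene epoxidase, read 430 and 328, a difference of -0.39. Msmo1, a demethylation enzyme of methyl sterols, read 1300.2 and 847, a difference of -0.62, and its other probe set was equal at 6.31, under the floor. Dhcr7, the last step to cholesterol, read 389 and 279, a difference of -0.48. Among the smallest differences were Nsdhl at -0.08, Pmvk at -0.12 and Cyp51 at -0.15. The regulators of the pathway did not share the direction, with Srebf2 at -0.09, Insig2 at -0.10, Scap at 0.03 and Insig1 at 0.14. Stard4, a sterol carrier and SREBP-2 target, read 126 and 84.8, with -0.73 to -0.45 over 3 probe sets. In the list of 30 sterol genes 5 are not analysed here. Against the DMSO array after joint normalization the median of the 25 counted was -0.34, on a scale where the median of all genes was -0.09.

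The Hmgcs1 promoter is shown because it was the only one among the 20 sterol genes with a promoter in RefSeq's table to hold the sterol regulatory element SRE-1. Its letters TCACNCCAC, in capitals, begin 137 bases before the start, and the stretch lies at chr13:119690174-119690262 on the plus strand of GRCm38.p6.
Hmgcs1: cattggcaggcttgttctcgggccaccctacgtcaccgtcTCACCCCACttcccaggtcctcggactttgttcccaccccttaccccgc
The element was in 1 of 26 promoters of 20 counted sterol genes, against 1.05% of all promoters. The E-box CACGTG, whose letters SREBP factors also bind, was in 5 of the 26, namely in promoters of Dhcr7, Hsd17b7, Insig1, Sc5d and Scap, against 6.02% of all. The antioxidant element TGACNNNGC was in 3, against 10.2%. The searches used both strands, and letters of one motif can overlap those of another.

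**Figure D4:**
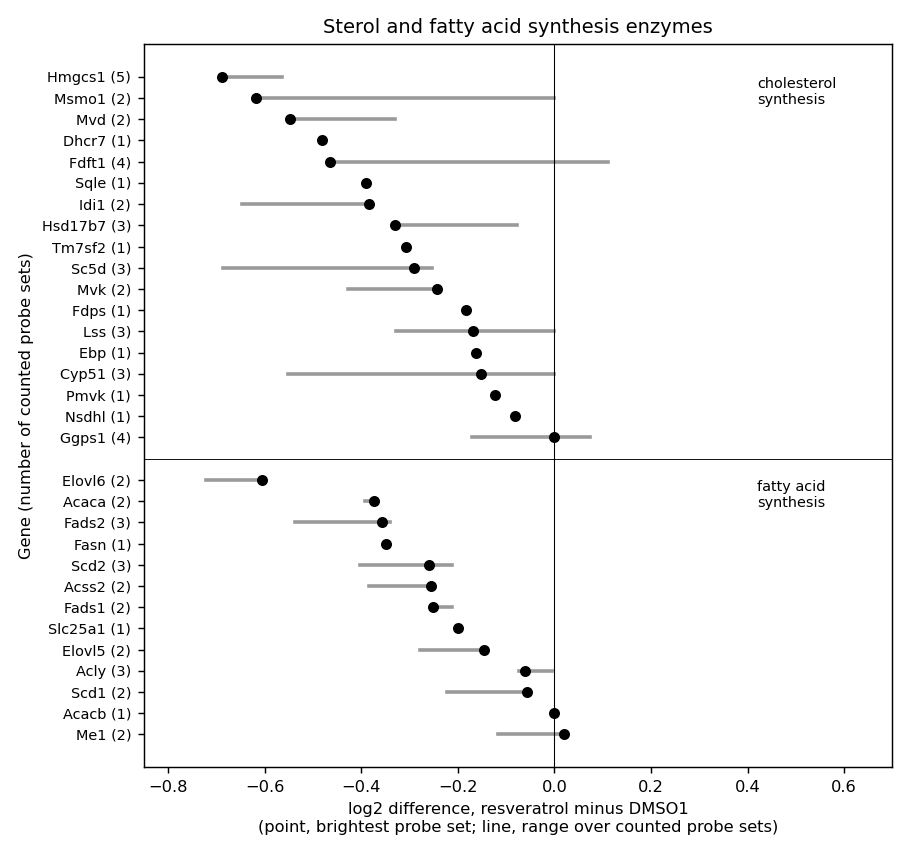
Log2 difference of resveratrol minus DMSO1 (horizontal axis) for each counted enzyme of cholesterol synthesis (top) and fatty acid synthesis (bottom), with the number of counted probe sets in parentheses. Points are the brightest probe set and lines the range over all counted probe sets; Hmgcs1, at -0.69, has 5 probe sets between -0.69 and -0.56, and Me1 is the only point right of 0.

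Fatty acid synthesis followed, with smaller differences. Of 13 counted enzymes 11 were lower, 1 higher and 1 equal, and the median was -0.25. Elovl6 was lowest. Fasn, fatty acid synthase, read 1743 in DMSO1 and 1369 with resveratrol, a difference of -0.35. Acaca, acetyl-CoA carboxylase, read 346 and 267, a difference of -0.37, with -0.39 on its other probe set. Fads2, a desaturase, read 556 and 434, with -0.54 to -0.34 over 3 probe sets. The abundant desaturase genes Scd1 and Scd2 gave -0.06 and -0.26, and Acly gave -0.06. Of the regulators, Srebf1 read 254 and 215 (-0.24) and Thrsp, a lipogenic nuclear protein, 183 and 134 (-0.45).

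Genes of LXR, the sterol-activated nuclear receptor, were lower at all 7 counted members, with a median of -0.35 and 4 at least 1.2-fold lower. Nr1h3, LXR alpha itself, read 56.6 in DMSO1 and 44.1 with resveratrol, a difference of -0.36. The cholesterol exporters Abca1 and Abcg1 read 875 and 687 (-0.35) and 91.6 and 66.6 (-0.46). Lpcat3, a phospholipid remodelling enzyme, read 689.6 and 530.1 (-0.38), while Apoe gave -0.18. Thus both the synthesis and the efflux genes of cholesterol were on the lower side.

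In triglyceride synthesis 8 of 10 counted enzymes were lower, with a median of -0.13. After Pnpla3, the phosphatidate phosphatase gene Lpin1 read 306 and 253 (-0.27) and Agpat2 read 2517 and 2089 (-0.27). Lpin2 read 75.5 and 90.4 (0.26), but its other counted probe sets gave 0.00 and 0.02. The final enzymes Dgat1 and Dgat2 gave -0.13 and -0.04. In the lipid droplet list 11 of 13 were lower, with a median of -0.08. After G0s2, the droplet fusion gene Cidea read 70.4 and 53.5 (-0.40), the seipin gene Bscl2 292 and 223 (-0.39) and the monoglyceride lipase gene Mgll 468 and 369 (-0.34). The triglyceride lipase gene Pnpla2 and the hormone-sensitive lipase gene Lipe gave 0.05 and -0.06.

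Receptors of adipocytes were on the lower side. Of 19 counted, 14 were lower, 3 higher and 2 equal, with a median of -0.26, and 9 were at least 1.2-fold lower and 5 at least 1.5-fold lower. All 6 counted metabolite receptors were lower. Besides Ffar4, Sucnr1 and Ffar2, the lactate receptor gene Hcar1 read 27.6 in DMSO1 and 18.4 with resveratrol, a difference of -0.58. The niacin and ketone body receptor gene Hcar2 read 54.4 and 39.0, a difference of -0.48. Gpr146 gave -0.26, with 0.03 on its other probe set. Mc2r, the receptor for ACTH, which raises cAMP in adipocytes, read 90.8 and 58.4, a difference of -0.64. Of hormone receptors, Ghr, for growth hormone, read 1851 and 1435 (-0.37), and Insr, for insulin, 116 and 92.5 (-0.33, with 0.00 on the other probe set), while Lepr was equal and Npr3, which clears natriuretic peptides, gave 0.23. Against the DMSO array after joint normalization Ffar4 differed by 0.05, Hcar1 by 0.07, Sucnr1 by -0.24 and Ffar2 by -1.95. In the list of 31 receptors 6 are not analysed here.

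Adipogenic regulators and products were slightly lower. Of 18 counted transcription factor genes of adipogenesis 11 were lower and 6 higher, with a median of -0.15. Klf15, a promoter of GLUT4 and of gluconeogenic genes, read 45.3 in DMSO1 and 27.9 with resveratrol, a difference of -0.70. Pparg, the master regulator of fat cells, read 602 and 481, a difference of -0.32. Cebpa, its partner, read 378 and 332, a difference of -0.19. On the other side Klf5, an early adipogenic factor, read 28.8 and 37.7, a difference of 0.39. Against the DMSO array Cebpa differed by 0.67. Of 24 counted products of mature adipocytes 21 were lower, with a median of -0.18. Among these, Pck1, a glyceroneogenic enzyme, read 32.1 and 20.1 (-0.67), the acute phase gene Orm1 325 and 229 (-0.51) and the phosphodiesterase gene Pde3b, through which insulin lowers cAMP, 276 and 207 (-0.42).

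Fatty acid oxidation genes had a median of 0 over 19 counted, yet a pair of PPAR targets was higher. Pdk4, the kinase that shuts pyruvate dehydrogenase, read 160.4 in DMSO1 and 268 with resveratrol, a difference of 0.74. Cpt1a, the carnitine transferase of mitochondrial import, read 173 and 289, a difference of 0.74, with 0.18 on the lowest of its 3 probe sets. Angptl4, above, is known as a PPAR target too. Against these, the peroxisomal gene Ehhadh and the co-activator gene Ppargc1b gave -0.49 each. Of 25 insulin and FoxO genes 15 were lower and 8 higher, with a median of -0.04, and Txnip and Klf15 of that list lay at its ends, at 0.77 and -0.70.

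For pathways often named with resveratrol, the arrays give transcript levels and not the activity of the proteins. Of the sirtuin genes, Sirt1, a deacetylase, read 69.9 in DMSO1 and 93.4 with resveratrol, a difference of 0.42, and Sirt5, a desuccinylase, read 114 and 90.4, a difference of -0.33. Sirt2, Sirt3 and Sirt4 differed by 0.00. The median of 29 counted sirtuin, NAD and AMPK genes was 0.00, with Nampt, the rate-limiting enzyme of NAD salvage, at 811 and 693 (-0.23) and the catalytic subunit gene Prkaa1 at 112 and 96.9 (-0.21). Of aryl hydrocarbon receptor genes, Ahr read 26.7 and 37.4, a difference of 0.49 with 0.00 on its other probe set. Its target Cyp1b1 read 854 and 897 (0.07), with -0.22 on its other counted probe set, and Cyp1a1 was under the floor. The estrogen receptor genes Esr1 and Esr2 were under the floor as well.

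Thermogenic genes had a median of 0 over 20 counted, with 6 at least 1.2-fold lower and none higher. Ppargc1a, the co-activator of mitochondrial and brown fat genes, read 15.4 and 12.4, a difference of -0.31, with -0.09 on its other probe set. Pank1, of coenzyme A synthesis, read 74.8 and 48.3 (-0.63), with 0.00 on a probe set at 6.46, under the floor on both arrays, and Cox7a1 and Cox8b gave -0.35 and -0.32. Prdm4, a zinc finger gene tied to brown fat, read 69.7 and 81.8, a difference of 0.23. Oxidative phosphorylation genes had a median of -0.03, and none of 27 reached 1.2-fold in either direction.

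Hypoxia response and glycolysis genes were lower at 22 of 29 counted members, with a median of -0.07 and 4 at least 1.2-fold lower. Against the DMSO array after joint normalization their median was 0.02, where that of all genes was -0.09. The glycolytic enzyme gene Pgam1 read 1513 in DMSO1 and 1231 with resveratrol, a difference of -0.30. Pdk1, the hypoxia-induced kinase of pyruvate dehydrogenase, read 283 and 228, a difference of -0.31, with -0.50 to -0.17 over 3 probe sets. Ndrg1 read 464 and 385, with -0.28 to -0.20 over 5 probe sets. The same list had medians of 0.29 with butein and 0.37 with sulfuretin against DMSO.

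Several lists lay near the median of all genes. Cell cycle genes had a median of 0 over 36 counted, with Rrm2, a ribonucleotide reductase subunit, at 149.8 and 191 (0.35) and Cdc20 at 70.7 and 55.4 (-0.35). Matrix genes had a median of 0 over 36, with Lum, a matrix proteoglycan, at 96.6 and 64.4 (-0.58). Ribosomal protein genes had a median of 0.01, and the largest difference among 14 was 0.08, at Rps24. Clock genes had a median of 0.07 over 19, with Cry1 at 28.3 and 39.1 (0.47) and Nr1d1 at 22.8 and 29.0 (0.35). Against the DMSO array after joint normalization the clock median was -0.06, where that of all genes was -0.09. Of osteoblast and chondrocyte genes, Tnfrsf11b, the decoy receptor osteoprotegerin, read 203 and 137 (-0.57).

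Butein is a chalcone and sulfuretin an aurone, both plant polyphenols, and both were set against the DMSO array, which they share. As no doses are given, their values stand beside those of resveratrol without a comparison. Of the 10 genes past 2-fold higher with resveratrol, 7 were higher with butein, 5 of them past 2-fold, against 33.0% of all genes higher and 2.03% past 2-fold. With sulfuretin 5 were higher and 0 past 2-fold, against 34.8% and 0.193%. Of the 8 lower genes, 7 were lower with butein, 4 past 2-fold, against 37.1% and 0.297% of all genes. With sulfuretin 6 were lower and 2 past 2-fold, against 32.6% and 0.0482%. These counts take in values under the floor. Cxcl10, counted as higher, read 5.12, 5.65 and 7.04 on the DMSO, butein and sulfuretin arrays. Sucnr1, counted as lower, read 7.42, 5.31 and 7.02. Cxcl10 and Depdc7 reached the floor on the resveratrol array only.

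The genes past 2-fold fell into several patterns. Atf3 differed by 1.12 with resveratrol, 4.36 with butein and 0.86 with sulfuretin, and Jun by 1.08, 2.47 and 0.59. Btg2 gave 1.12, 3.17 and -0.33, and Chac1 1.01, 3.14 and 0.14. G0s2 gave -1.08, -3.26 and -1.11, and Pnpla3 -1.08, -3.29 and -1.64, lower in each. Ccn2 gave 1.22 with resveratrol, -0.74 with butein and -0.65 with sulfuretin. Angptl4 read 32.0 on each of the DMSO, butein and sulfuretin arrays, so that its differences there were 0.00. Ffar4 gave -1.06 with resveratrol and 0.27 and 0.66 with the others, which start from 6.08 in DMSO, under the floor. Dusp4 and Dusp6, at -0.79 and -0.52 with resveratrol, were at 2.00 and 1.97 with butein and at 0.64 and 0.67 with sulfuretin.

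The difference between the solvent arrays is given beside these values and is not an error estimate for them. Sorted values of DMSO and DMSO1 differed by a mean of 0.514 (log2), against 0.0141 for DMSO1 and resveratrol. That gap also varied between probe sets of a gene, which joint normalization of whole arrays need not remove. For Gpd1, a probe set read 131 in DMSO and 989 in DMSO1, while its brightest read 1914 and 2088. After joint normalization the DMSO1 minus DMSO difference was larger than the resveratrol difference for Btg2 (-1.69), Ccn2 (-1.28) and Pnpla3 (-1.28), and for B3galt2 it was 1.31 against -1.32. It was smaller for the remaining genes past 2-fold. With DMSO in the place of DMSO1, 9 of the 10 higher genes were still higher and 7 of the 8 lower ones still lower. The exceptions were Btg2, at -0.44, and Ffar4, at 0.05. Past 2-fold against either solvent array in the same direction were Atf3 and Angptl4 upward and G0s2, Pnpla3 and Vsir downward, while Depdc7, at 1.34, was under the floor of the joint scale.

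**Figure D5:**
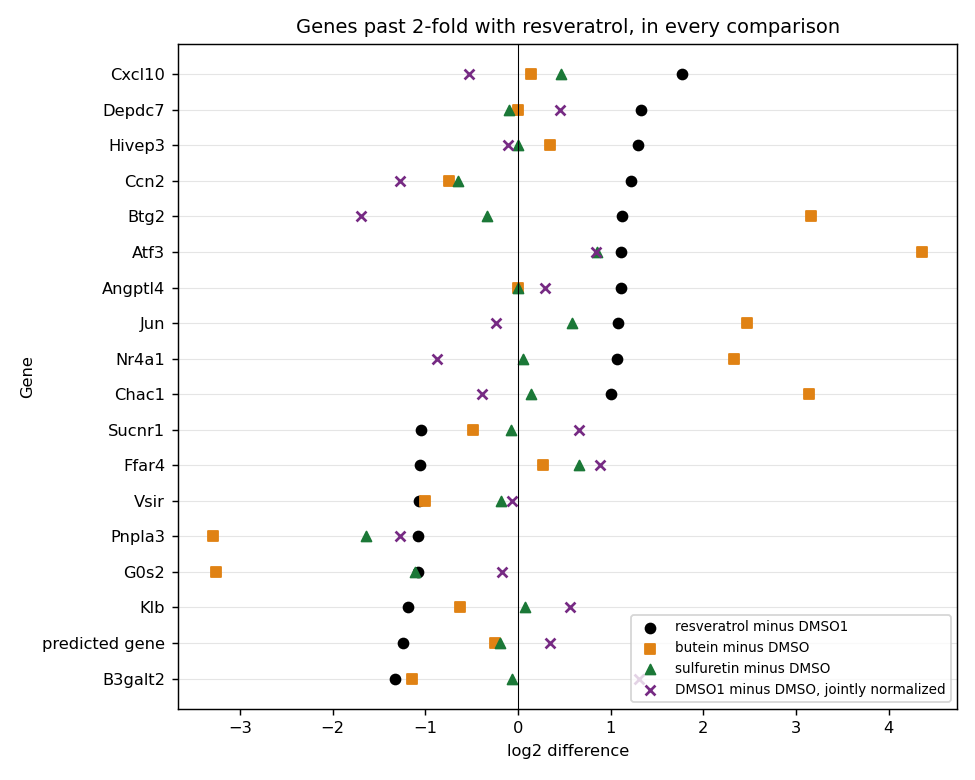
Log2 differences (horizontal axis) of the genes at least 2-fold apart between resveratrol and DMSO1, shown for resveratrol minus DMSO1 (circles), butein and sulfuretin minus DMSO (squares, triangles) and DMSO1 minus DMSO after joint quantile normalization (crosses), 1 array per group. G0s2 and Pnpla3 lie left of 0 for every treatment, and Btg2 spans from -1.69 between the solvent arrays to 3.17 with butein.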

How the data were processed

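The values are probe set intensities that the authors deposited, 1 column per array; per the submitters' processing notes they were made with RMA, and its version and background step are left unstated (not given in the sources used here). All values are on a linear scale, so log2 was taken with no pseudocount. DMSO1 served as control because its label names it as the control for resveratrol. The sorted values of DMSO1 and resveratrol differ by a mean of 0.0141 on the log2 scale and those of DMSO and DMSO1 by 0.514. The genome build behind the array values is not given. The number of arrays, 1 per group, limits the precision, and nothing says which cultures they came from.

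Symbols were updated through RefSeq's GRCm38.p6 table, which held 34741 of 34945 probe sets that name 1 gene; 932 name several, 9160 none. Values within 1e-06 (log2) were called equal. The comparison, its members and 41 gene lists were chosen with earlier results of these data known. The rule named every gene past 2-fold other than clone and predicted names, up to 4 members per list with the largest difference (8 in 7 lists), 12 genes each way whose probe sets agree at 1.2-fold, and 12 fixed genes. Other genes were chosen after their values were seen. Alternatives were 1.5-fold and 3-fold criteria, a floor at percentile 75, on DMSO1 and resveratrol only or omitted, the mean of all probe sets, leaving out the _s_at and _x_at probe sets, loess correction (span 0.4), and DMSO as control after joint quantile normalization. The procedure was tested on simulated data. Tables were handled with pandas 2.3.3 and numpy 2.4.6 in Python 3.11.15, loess came from statsmodels 0.14.6 and figures from matplotlib 3.10.9.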

Additional observations from a re-analysis of the deposited data

Results flagged for a closer look

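Among the probe sets outside the comparison because they do not name a single gene, 3688 reached the floor, of which 1 was at least 2-fold higher with resveratrol and 2 at least 2-fold lower. The higher probe set names several genes and read 19.6 in DMSO1 and 41.7 with resveratrol, a log2 difference of 1.09, above the level in its control. The lower ones name no gene in the annotation used and gave -1.17 and -1.09.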

How the results depend on the processing

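The counts of genes past 2-fold, 10 higher and 8 lower, were 42 and 45 at a fold of 1.5 and 1 and 0 at a fold of 3. With a floor at percentile 75 they were 7 and 5, and with DMSO as control after joint quantile normalization 300 and 529. That last setting moved the median of all genes to -0.09. Under it the direction turned, among medians of at least 0.1 and genes past 2-fold, for the medians of adipocyte markers (0.10), endothelial markers (-0.11, from 1 gene) and p53 targets (-0.081) and for Btg2 (-0.44) and Ffar4 (0.054). Of 118 values of the genes past 2-fold over all settings, 101 kept their direction and stayed past 2-fold, 15 kept their direction under 2-fold and 2 turned. With the mean of all probe sets, Angptl4 gave 0.85, Hivep3 0.32, Jun 0.89, Klb -0.59 and Vsir -0.66. With DMSO as control, B3galt2 gave -0.15, Ccn2 0.03, Chac1 0.75, Cxcl10 0.69, Hivep3 0.96, Jun 0.93, Klb -0.75, Nr4a1 0.34 and Sucnr1 -0.24. Among the medians of lists 253 values moved by less than 0.1, 30 moved by more and 3 of at least 0.1 turned. Medians under 0.1 changed sign as well, mostly with DMSO as control and for histone genes also with the floor at percentile 75 (-0.022). The median of immediate early genes was 0.41 with a floor at percentile 75, and that of the receptors -0.10 with no floor and -0.13 when probe sets were averaged. The cause was not tested. No paired analysis was possible because each group has 1 array and the labels give no shared replicate numbers. Near the floor the intensity limits what can be read, as 2 of the 10 higher genes were under it in DMSO1.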

Other observations

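The share of counted genes with exactly equal values on the DMSO1 and resveratrol arrays differed between levels. It was 47.1% of 238 genes whose level was under the floor, 55.1% of 3855 genes between the floor and 32, 28.6% of 4469 between 32 and 128, 16.3% of 2899 between 128 and 512 and 14.1% of 978 at 512 or more. The 95th percentile of the absolute log2 difference was 0.34, 0.26, 0.30, 0.27 and 0.28 in these ranges, beside the 0.26 of a 1.2-fold difference.

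Many intensities sat on a grid. Of the DMSO1 values of at least 30, 57.3% lay within 0.005 of steps of 0.333 with a common offset, as did 54.5% on the resveratrol array, where even spacing would give 3%. On the DMSO, butein and sulfuretin arrays the shares were 45.6%, 48.2% and 54.8%, with another offset.

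Genes that repress adipogenesis, not described above as a list, had a median of 0.06 over 21 counted members, with 15 higher and 5 lower. Ddit3, Trib3 and Sirt1 belong to this list too, and their values are given above. Hes1, a Notch target, read 59.4 in DMSO1 and 71.5 with resveratrol, a difference of 0.27, and the pseudokinase gene Trib2 read 85.8 and 102, with 0.22 and 0.25 on its 2 probe sets. Of cAMP and CREB genes 11 of 25 were higher and 8 lower, with Sik1, a salt-inducible kinase, at 30.8 and 37.7 (0.29) and Rgs2, a regulator of G protein signalling, at 1212 and 1023, with -0.58 to -0.24 over 4 probe sets.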
